A study of Mus musculus with 6 samples.

Results

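Ribosome biogenesis genes encode the machinery that transcribes the ribosomal RNA (rRNA) precursor in the nucleolus, cuts and modifies it, and assembles it with ribosomal proteins into the 40S and 60S subunits. The 41 genes described here are a list of symbols, and each gene was read from a probe set annotated with that symbol alone, the brightest over the 6 arrays where there were several. Of these, 40 were measured among 19937 genes tested; Noc2l was not measured here. The list covers 7 genes of RNA polymerase I transcription, 6 nucleolar proteins and regulators, 4 proteins of box C/D and 3 of box H/ACA small nucleolar ribonucleoproteins (snoRNPs), 8 of the small-subunit processome, 5 late 40S factors and 8 factors of 60S assembly, Noc2l included.

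The study profiled Thy1.2+ cells, purified with magnetic beads, of mouse fetal thymus at E17.5 (embryonic day), in embryos that all carried the Rag1-/- genotype, which blocks antigen receptor gene rearrangement and so holds T cell development at an early stage. The 79-6 group (labelled 79-6-40h, 2 arrays) had been stimulated for 40 h with an antibody to CD3 in the presence of 50 µM 79-6, a small-molecule inhibitor of the transcriptional repressor Bcl6. The DMSO group (Control-DMSO-40h, 2 arrays) had received the same antibody for 40 h with the solvent DMSO, and the fresh group (Control-0h, 2 arrays) was unstimulated tissue at 0 h. The design text places the stimulated groups in fetal thymic organ culture. Between DMSO and fresh arrays, culture, time, solvent and anti-CD3 change together and cannot be told apart. The labels do not say how many embryos made up a sample or whether replicates came from separate litters. The p-values rest on the spread between samples of the same group, which may be technical. That spread was pooled over all groups and drawn towards the spread of all genes.

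Growing and dividing cells make ribosomes at a high rate, and thymocytes that pass the pre-T cell receptor checkpoint enter a phase of growth and proliferation. RNA polymerase I transcribes one long rRNA precursor, snoRNPs guide its methylation and pseudouridylation, and separate sets of assembly factors then carry the 2 subunits from the nucleolus to the cytoplasm. Myc and its relatives bind the E-box CACGTG and are known activators of many genes of this pathway.

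Promoters of the list were searched for that E-box, whose letters read the same on both strands. RefSeq promoter windows (mouse build GRCm38.p6, 250 bases before to 50 bases after the annotated start) were given for 36 of the 40 genes; Npm1, Fbl, Bop1 and Rrp12 had none. The E-box was found in 9 of the 36 windows (25%), in 1483 of 15613 windows of genes tested on the arrays (9.5%) and in 2187 of 27025 windows of the whole promoter table (8.09%). Windows of the list held a median of 20 CG dinucleotides against 16 for the genes tested, and among the 9847 tested genes within the list's range of 9 to 44 the share with the E-box was 12.5%. These shares describe letters in a window, with no test, and a match is not evidence that a factor binds there. The 4 windows below are shown because they belong to genes that were lower in DMSO than in fresh cells and place the E-box on different sides of the start, and the last, of Polr1a, because that gene was also lower and these letters were not in its window. Each is written 5′ to 3′ along the gene, all 5 lie on the plus strand, and capitals mark the E-box.
Rrn3, chr16:13780449-13780748: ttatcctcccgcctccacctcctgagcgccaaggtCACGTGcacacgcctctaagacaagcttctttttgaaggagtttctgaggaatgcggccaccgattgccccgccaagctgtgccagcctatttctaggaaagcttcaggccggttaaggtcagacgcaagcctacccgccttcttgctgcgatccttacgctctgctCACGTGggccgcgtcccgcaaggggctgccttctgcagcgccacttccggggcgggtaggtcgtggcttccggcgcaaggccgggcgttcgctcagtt
Mybbp1a, chr11:72441077-72441376: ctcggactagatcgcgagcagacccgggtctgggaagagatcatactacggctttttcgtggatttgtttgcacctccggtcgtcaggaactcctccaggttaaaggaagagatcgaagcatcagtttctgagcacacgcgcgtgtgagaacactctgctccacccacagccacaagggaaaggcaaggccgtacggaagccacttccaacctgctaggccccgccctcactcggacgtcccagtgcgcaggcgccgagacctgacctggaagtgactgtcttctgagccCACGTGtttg
Nop2, chr6:125131633-125131932: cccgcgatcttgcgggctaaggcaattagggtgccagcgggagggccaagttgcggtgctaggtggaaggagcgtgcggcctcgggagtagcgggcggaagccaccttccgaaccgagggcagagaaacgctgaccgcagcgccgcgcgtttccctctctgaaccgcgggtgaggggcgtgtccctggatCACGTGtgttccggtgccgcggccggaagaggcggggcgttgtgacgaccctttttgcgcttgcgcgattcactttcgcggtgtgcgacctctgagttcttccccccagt
Tsr1, chr11:74897830-74898129: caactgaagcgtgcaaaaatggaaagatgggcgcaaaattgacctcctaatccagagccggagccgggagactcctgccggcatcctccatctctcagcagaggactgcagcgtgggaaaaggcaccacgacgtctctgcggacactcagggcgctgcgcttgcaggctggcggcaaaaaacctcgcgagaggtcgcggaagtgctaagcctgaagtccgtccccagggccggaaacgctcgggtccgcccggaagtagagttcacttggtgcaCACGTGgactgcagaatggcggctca
Polr1a, chr6:71908803-71909102: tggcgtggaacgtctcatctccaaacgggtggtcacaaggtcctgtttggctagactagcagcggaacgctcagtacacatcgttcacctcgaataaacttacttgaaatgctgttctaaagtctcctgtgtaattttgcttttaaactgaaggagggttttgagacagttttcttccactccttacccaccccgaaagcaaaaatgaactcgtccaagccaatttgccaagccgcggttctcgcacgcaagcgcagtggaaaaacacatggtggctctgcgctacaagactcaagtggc

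In Rrn3 the E-box occurred at 2 places, 215 and 48 bases before the start. In Nop2 and Imp4 it began 60 and 121 bases before the start, and in Pes1, Wdr43, Tsr1, Ltv1, Utp20 and Mybbp1a it began at base 3, 18, 25, 29, 38 and 41 of the transcript.

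**Figure D1:**
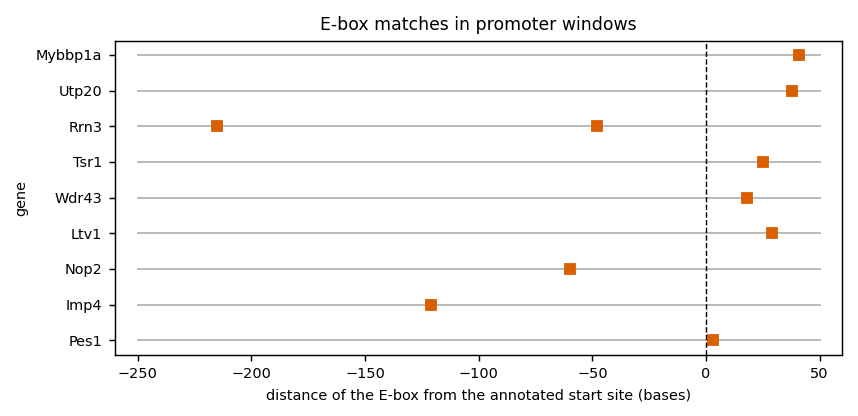
Position of each CACGTG match relative to the annotated start site (x axis, in bases, with the start at the dashed line) in the 9 genes whose promoter window held one; grey lines span the window searched. In 6 genes the match lies after the start, and Rrn3 has 2 matches before it.

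All values below are log2 of the deposited array intensity, changes are differences of log2 values with limma's standard error (SE), and a gene was called where its p, adjusted over all 19937 genes by the Benjamini-Hochberg method, was under 0.05. Median intensity per array lay between 99.3 and 103.6, and array medians of the genes tested differed by at most 0.08. The Rag1 probe set read 10.82 to 11.51 over the 6 arrays; the part of the gene it covers is not given in the sources used here, so it does not check the genotype. The T cell markers Thy1 and Cd3e were bright on every array, at 12.78 or more. In DMSO against fresh samples Thy1 rose by 0.43 and Cd3e fell by 0.47 (limma, adjusted p = 0.0053 and 0.00361). Macrophage and dendritic cell markers summed to 21185 to 23783 intensity units in 79-6, 16630 to 17075 in DMSO and 4471 to 7466 in fresh samples over 11 of 11 genes, and thymic epithelium markers to 3378 to 3400 units in 79-6, 2879 to 3989 in DMSO and 9310 to 9381 in fresh samples over 9 of 9 genes. Granulocyte and mast cell markers (8 of 8) summed to 6223 to 8119 in 79-6, 4994 to 5011 in DMSO and 3763 to 4279 in fresh samples. The mast cell marker Cpa3 went the other way, by -1.61 in DMSO against fresh and -1.43 in 79-6 against DMSO samples. Of the 8, 5 were called higher and 1 lower in the first comparison (8.89% and 10.7% of all genes). In the second, 1 was higher and 2 were lower (2.38% and 1.98%). Natural killer markers (5 of 5) summed to 5405 to 5534 in 79-6, 2657 to 2686 in DMSO and 6430 to 7819 in fresh samples. T lineage markers (7 of 9) summed to 32750 to 34431 in 79-6, 33764 to 34802 in DMSO and 41996 to 43740 in fresh samples. B cell markers (4 of 5) summed to 2670 to 2938 in 79-6, 1981 to 2071 in DMSO and 2393 to 2476 in fresh samples, and erythroid markers (3 of 6, without Hba-a1) to 187 to 256 in 79-6, 162 to 176 in DMSO and 463 to 852 in fresh samples. The macrophage marker Lyz2 read 13.19 and 13.43 in 79-6, 13.07 and 13.04 in DMSO and 8.80 and 9.55 in fresh samples, and no measured defining marker was at 0. With a change of 3.88 in DMSO against fresh samples, Lyz2 was the highest of the 11 macrophage and dendritic markers. Their median change was 0.64 and their lowest 0.04. Of the 11, 5 were called higher, where 8.89% of all genes were. Between cultured and fresh samples the summed ranges of the macrophage, thymic epithelium, granulocyte and mast, T lineage, natural killer and erythroid markers did not overlap. Between 79-6 and DMSO samples those of the macrophage, granulocyte and mast, B cell, natural killer and erythroid markers did not overlap. Those of the T lineage and thymic epithelium markers did overlap. The part of these markers in the results below was not tested. In such bulk samples, fewer cells of a type and less RNA per cell cannot be told apart.

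Ribosome biogenesis genes were lower after 40 h of culture with anti-CD3 and DMSO than in fresh cells. In DMSO against fresh samples 24 of 40 genes fell and 0 rose, while 10.7% of all genes tested fell and 8.89% rose (limma). The median change of the 40 was -0.32, against 0.02 for all genes, and single genes lay between -0.65 (Mybbp1a) and 0.15 (Ubtf). Falls of called genes were 1.2 to 1.57-fold. The shares over all genes include dim ones, and all 40 genes of the list were brighter than those. With dim genes left out (mean log2 of 7.13 or less), 2081 of 9968 genes fell and 1994 rose. In that setting 31 of the 40 fell and 0 rose. Both DMSO arrays lay below both fresh arrays in 38 of the 40, as they did in 28.1% of all genes; the exceptions, Polr1c and Ubtf, had both DMSO arrays above. With every array shifted to a common median, 58.2% of all called genes were higher, against 45.4% without the shift, and 19 genes of the list fell. Leaving out any 1 DMSO or fresh array gave list medians of -0.35 to -0.31, but fewer genes of the list were called.

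**Figure D2:**
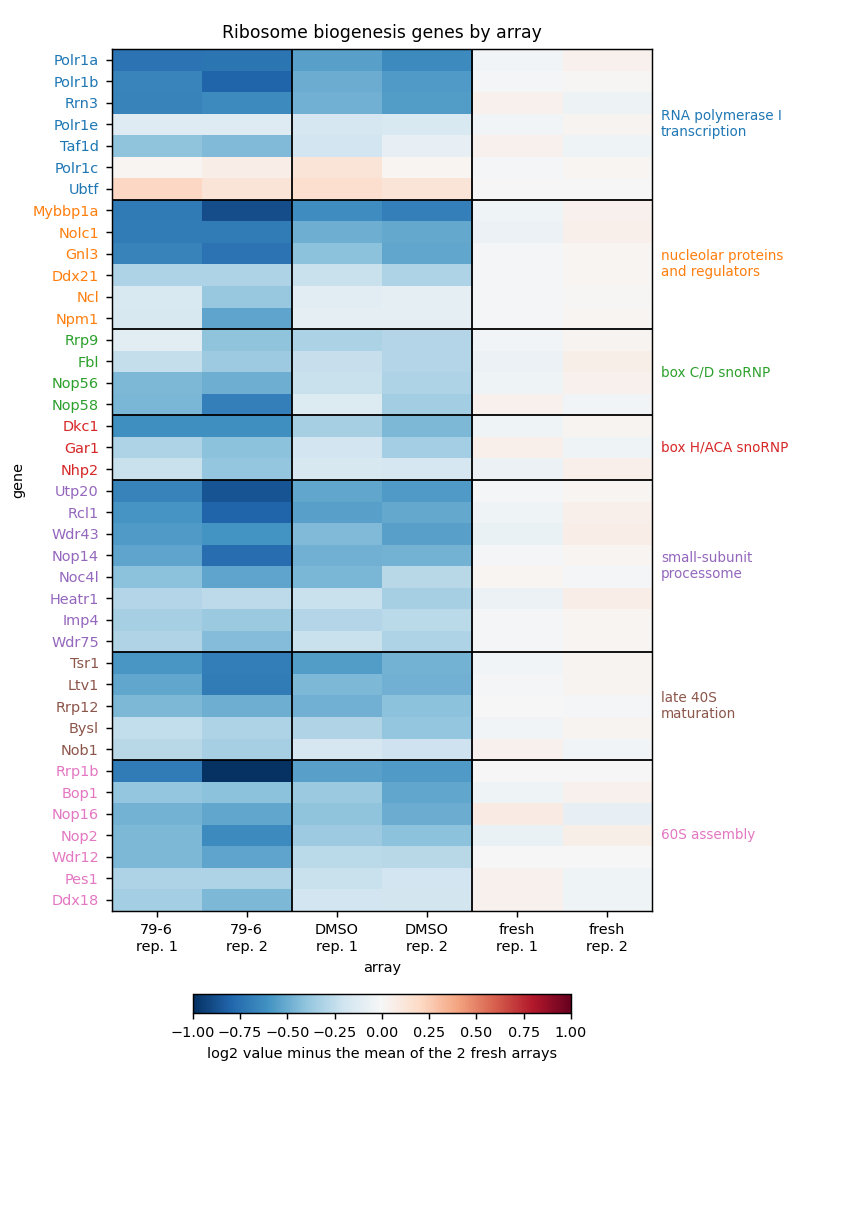
Log2 value of each of the 40 genes (rows, grouped by role) on each array (columns), minus the mean of the 2 fresh arrays. Blue is lower and red is higher; nearly all rows are blue in the 79-6 and DMSO columns, and Ubtf and Polr1c are the rows without blue.

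With 79-6 the list lay slightly further down, but no gene passed the test. In 79-6 against DMSO samples 0 of 40 genes were called by limma, while 1.98% of all genes fell and 2.38% rose; the lowest adjusted p of the list was 0.0839 (Taf1d). At an unadjusted p under 0.05 there were 11 of 40 (27.5%), all lower in 79-6, against 4079 of all genes (20.5%). Of those 4079 genes 1950 were lower and 2129 higher in 79-6. The median change was -0.13 against 0.02 for all genes. Changes were below 0 in 35 of the 40 genes and in 8933 of all 19937 genes tested. The 95% intervals of single genes of the list lay within -0.57 to 0.30. Both 79-6 arrays lay below both DMSO arrays in 27 of the 40 and in 22.2% of all genes. With a prior variance that follows intensity Taf1d (adjusted p = 0.0122) and Nop56 (0.045) were called, with dim genes left out Taf1d was (0.0349), and without 79-6 replicate 2 the median was -0.06. With the shift to a common median 40% of all called genes were higher, against 54.7% without it.

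Set against fresh samples, 79-6 samples showed 34 of 40 genes fallen and 0 risen, with 13.9% of all genes fallen and 12% risen. The 6 not called were Ncl, Npm1, Polr1c, Polr1e, Ubtf and Rrp9. With a prior variance that follows intensity Ncl, Npm1 and Ubtf were called too (adjusted p = 0.0146, 0.0252 and 0.0355), with Ubtf higher in 79-6. The median change of the list was -0.47 (0.05 for all genes), and called genes were 1.21 to 1.8-fold lower. With dim genes left out, 36 of the 40 fell and 0 rose, while 2740 of 9968 genes fell and 2241 rose. Both 79-6 arrays lay below both fresh arrays in 38 of the 40 and in 27.7% of all genes. This comparison shares its arrays with both others and adds no further samples.

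Array by array, the list's median distance from the fresh mean was -0.43 and -0.50 on the 79-6 arrays, -0.31 and -0.35 on the DMSO arrays and -0.02 and 0.02 on the fresh arrays, so the groups did not overlap. All 6 arrays ran in the order 79-6, DMSO, fresh from low to high in 27 of the 40 genes, and in 7.35% of all genes; the DMSO arrays enter both steps of that order. The other 13 were Fbl, Nop16, Gar1, Polr1c, Polr1e, Ubtf, Bop1, Rrp9, Rrp12, Wdr75, Heatr1, Bysl and Noc4l. Within the 79-6 pair, replicate 2 lay below replicate 1 in 33 of 40 genes, against 44.6% of all genes. It did so in 28 of 40 in the DMSO pair (47% of all genes) and in 11 of 40 in the fresh pair (50.3%). Most of the list thus differed in the same direction within each pair of replicates, which limits the reading of small shared changes between groups.

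**Figure D3:**
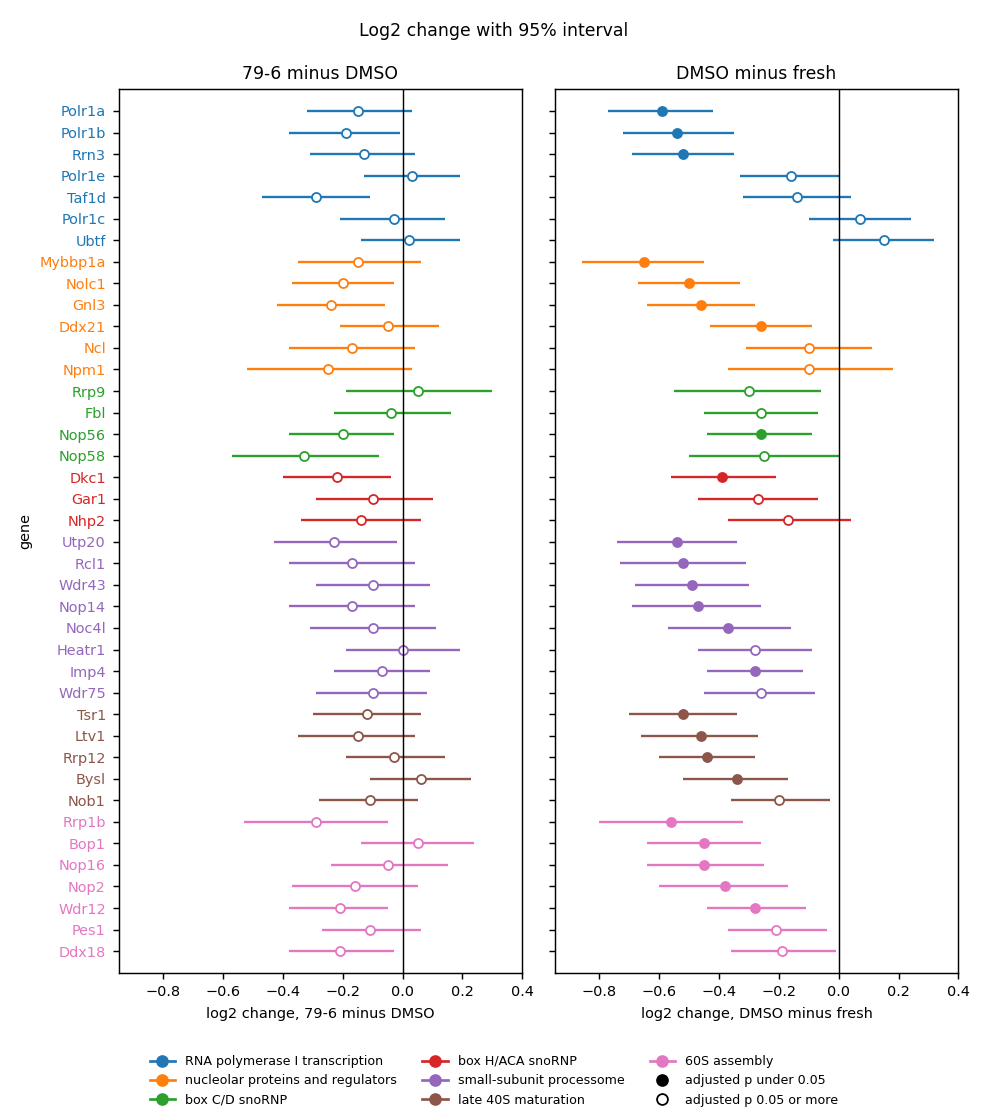
Log2 change of each gene (rows, coloured by role) for 79-6 minus DMSO (left) and DMSO minus fresh (right); lines are 95% intervals, filled points have an adjusted p under 0.05. On the right 24 points are filled, all below 0. On the left none is filled and 35 lie below 0, as did 8933 of all 19937 genes tested.

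RNA polymerase I transcription split into subunits and factors that fell in culture and others that did not pass the test. Polr1a, Polr1b and Rrn3 were the 3 of 7 called in DMSO against fresh samples, where 10.7% of all genes fell. Polr1c, Polr1e, Taf1d and Ubtf were not called. In 79-6 against fresh samples, where 13.9% of all genes fell, Taf1d was called as well, giving 4 of 7. The 7 genes had a median change of -0.16 in DMSO against fresh samples and -0.13 in 79-6 against DMSO samples.

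Polr1a, the largest subunit of the enzyme, read 9.24 and 9.25 in 79-6, 9.44 and 9.34 in DMSO and 9.95 and 10.02 in fresh samples. Its fresh arrays stood apart at the top, and the 79-6 arrays were the lowest. It fell by 0.59 ± 0.07 (SE) in DMSO against fresh samples, a 1.51-fold drop (limma, adjusted p = 0.00156). Polr1b, the second-largest subunit, read 9.81 and 9.67 in 79-6, 9.97 and 9.90 in DMSO and 10.46 and 10.48 in fresh samples. The order was that of Polr1a, and the fall in DMSO against fresh samples was 1.45-fold (adjusted p = 0.0032). Rrn3, the factor that joins the polymerase to the complex on the rDNA promoter, read 10.35 and 10.38 in 79-6, 10.54 and 10.46 in DMSO and 11.06 and 10.97 in fresh samples. Again no 2 groups overlapped, with a 1.43-fold fall in DMSO against fresh samples (adjusted p = 0.00287). In 79-6 against fresh samples Polr1a, Polr1b and Rrn3 changed by -0.74, -0.73 and -0.65.

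Taf1d, a subunit of the selectivity factor that places the polymerase on the promoter and also a host gene of small nucleolar RNAs, read 12.09 and 12.05 in 79-6, 12.30 and 12.41 in DMSO and 12.53 and 12.45 in fresh samples. The wider gap was between 79-6 and DMSO, at -0.29 ± 0.08 (adjusted p = 0.0839). For DMSO against fresh samples the change was -0.14 (adjusted p = 0.274). The gene had 6 probe sets, whose 79-6 against DMSO changes ran from -0.68 to -0.10 and whose DMSO against fresh changes ran from -0.31 to 0.04.

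Ubtf, which binds along the rDNA repeat, was the gene with the highest change of the list in DMSO against fresh samples, at 0.15 (adjusted p = 0.204). It read 11.34 and 11.26 in 79-6, 11.30 and 11.26 in DMSO and 11.13 in both fresh samples, so both cultured groups lay above the fresh one and overlapped each other. Polr1c, a subunit shared by RNA polymerases I and III, read 10.02 and 10.07 in 79-6, 10.13 and 10.02 in DMSO and 9.99 and 10.02 in fresh samples. The 6 arrays lay close together, and its DMSO against fresh change was 0.07 with a 95% interval of -0.10 to 0.24. Polr1e, another subunit, read 9.22 in both 79-6 samples, 9.18 and 9.20 in DMSO and 9.32 and 9.38 in fresh samples. Its 79-6 arrays were the only ones of the list above both DMSO arrays, by 0.03, and this became -0.02 when arrays were shifted to a common median.

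**Figure D4:**
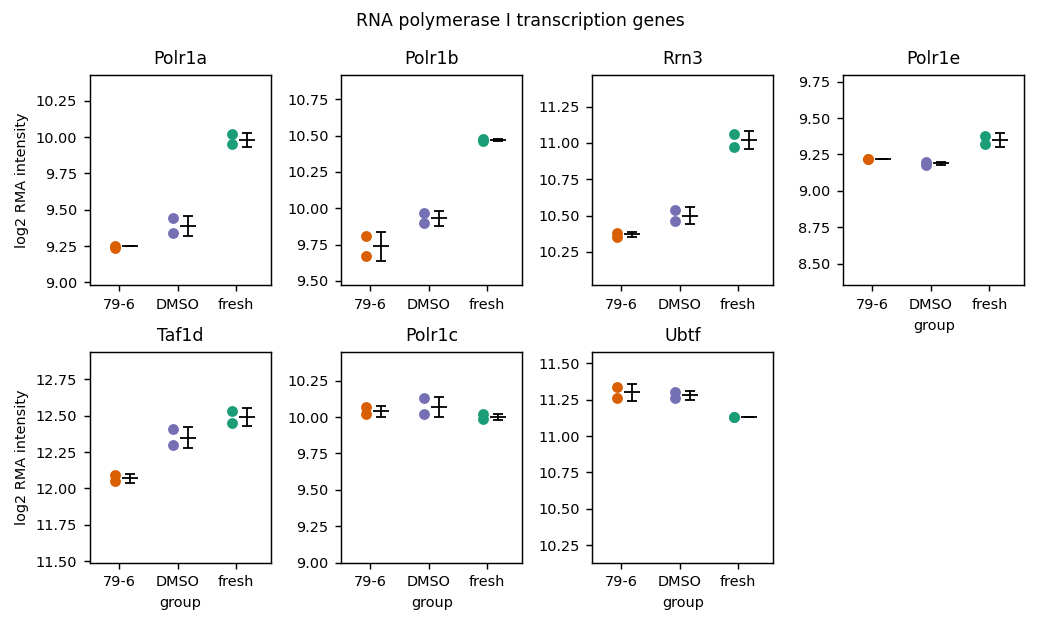
Log2 intensity (y axis, each panel spanning the same height) of the 7 RNA polymerase I transcription genes in 79-6, DMSO and fresh samples. Points are arrays, and bars beside them give the mean and SD of 2 arrays; Polr1a, Polr1b and Rrn3 are lower in both cultured groups than in fresh samples, and Ubtf sits above its fresh value.

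Nucleolar proteins and regulators differed among themselves in the same way. Mybbp1a, Nolc1, Gnl3 and Ddx21 fell in DMSO against fresh samples (4 of 6, where 10.7% of all genes fell). The abundant nucleolar proteins Ncl and Npm1 did not pass the test in any of the 3 comparisons. The median change of the 6 was -0.36 in DMSO against fresh samples and -0.18 in 79-6 against DMSO samples.

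Mybbp1a, a nucleolar protein that binds Myb and takes part in rRNA precursor processing, read 10.31 and 10.13 in 79-6, 10.40 and 10.34 in DMSO and 10.98 and 11.06 in fresh samples. It had the lowest DMSO against fresh change of the list, -0.65 ± 0.09, which is 1.57-fold lower (adjusted p = 0.00205). Nolc1, a chaperone of snoRNPs, read 10.05 in both 79-6 samples, 10.26 and 10.24 in DMSO and 10.69 and 10.80 in fresh samples. The 3 groups of this gene formed separate steps, and it fell 1.41-fold in DMSO against fresh samples (adjusted p = 0.00315). Gnl3 (nucleostemin), a nucleolar GTPase of proliferating cells, read 9.90 and 9.83 in 79-6, 10.16 and 10.05 in DMSO and 10.55 and 10.59 in fresh samples, again without overlap. Its change was -0.46 in DMSO against fresh samples (adjusted p = 0.00565) and -0.24 in 79-6 against DMSO samples (adjusted p = 0.139). Ddx21, an RNA helicase, changed by -0.26 in DMSO against fresh samples (adjusted p = 0.0427).

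Ncl (nucleolin) read 12.58 and 12.35 in 79-6, 12.62 and 12.64 in DMSO and 12.72 and 12.74 in fresh samples. Npm1 (nucleophosmin) read 12.20 and 11.83 in 79-6, 12.26 in both DMSO samples and 12.34 and 12.38 in fresh samples. Both genes were lowest on the array of 79-6 replicate 2, and the DMSO and fresh arrays lay close together. Their DMSO against fresh changes were -0.10 each, with 95% intervals of -0.31 to 0.11 for Ncl and -0.37 to 0.18 for Npm1.

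Among snoRNP proteins, which direct rRNA methylation (box C/D) and pseudouridylation (box H/ACA), 1 of 4 and 1 of 3 fell in DMSO against fresh samples, and 3 of 4 and 3 of 3 in 79-6 against fresh samples. Of all genes, 10.7% fell in the first comparison and 13.9% in the second. Nop56, a core box C/D protein, read 11.87 and 11.83 in 79-6, 12.10 and 12.01 in DMSO and 12.28 and 12.36 in fresh samples. Its 3 groups did not overlap, and it fell 1.2-fold in DMSO against fresh samples (adjusted p = 0.0468). Its paralogue Nop58 read 10.47 and 10.25 in 79-6, 10.79 and 10.58 in DMSO and 10.97 and 10.90 in fresh samples. The DMSO arrays lay nearer to the fresh ones here, with a change of -0.25 (adjusted p = 0.158), and the 79-6 against DMSO change of -0.33 ± 0.11 was the lowest of the list (adjusted p = 0.141). In 79-6 against fresh samples Nop58 fell 1.49-fold (adjusted p = 0.00673). Fbl (fibrillarin), the methyltransferase of these particles, changed by -0.26 in DMSO against fresh samples, without passing the test (adjusted p = 0.0649). Its other probe set also changed by -0.26, and with both averaged Fbl was called (limma, adjusted p = 0.0464). Rrp9, a protein specific to the U3 snoRNP, read 9.37 and 9.08 in 79-6, 9.16 and 9.19 in DMSO and 9.45 and 9.51 in fresh samples. Its 79-6 arrays lay on either side of the DMSO ones.

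Dkc1 (dyskerin), the pseudouridine synthase of box H/ACA particles, read 10.49 in both 79-6 samples, 10.77 and 10.65 in DMSO and 11.06 and 11.13 in fresh samples. The steps between groups did not overlap, and the fall in DMSO against fresh samples was 1.31-fold (adjusted p = 0.0112). Its partners Gar1 and Nhp2 changed by -0.27 and -0.17 in that comparison without passing the test (adjusted p = 0.0682 and 0.249). Both fell in 79-6 against fresh samples, by 0.36 and 0.30 (adjusted p = 0.018 and 0.0377).

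The small-subunit processome, the large particle that forms on the nascent precursor and frees the 18S rRNA, had 6 of 8 genes lower in DMSO than in fresh samples and 8 of 8 lower in 79-6 than in fresh samples. Among all genes 10.7% and 13.9% fell, in that order. Median changes were -0.42 and -0.53 in these comparisons, and -0.10 for 79-6 against DMSO samples. Utp20, a large scaffold protein, read 8.87 and 8.68 in 79-6, 9.02 and 8.97 in DMSO and 9.52 and 9.56 in fresh samples. The fresh arrays were far above the rest, and the fall in DMSO against fresh samples was 1.45-fold (adjusted p = 0.0047). Rcl1, known from yeast to act in early cleavage of the precursor, read 9.50 and 9.29 in 79-6, 9.55 and 9.58 in DMSO and 10.05 and 10.14 in fresh samples. It fell 1.44-fold in DMSO against fresh samples (adjusted p = 0.00637), and both 79-6 arrays lay below both DMSO arrays. Wdr43, of the subcomplex that binds the precursor first, read 10.83 and 10.80 in 79-6, 10.96 and 10.86 in DMSO and 11.33 and 11.47 in fresh samples. Its change in DMSO against fresh samples was -0.49 (adjusted p = 0.00572).

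Nop14, Noc4l and Imp4, further processome proteins, changed by -0.47, -0.37 and -0.28 in DMSO against fresh samples, and each was called (adjusted p = 0.0102, 0.0264 and 0.0265). Wdr75 and Heatr1, partners of Wdr43 in the same subcomplex, changed by -0.26 and -0.28 and lay just outside the threshold (adjusted p = 0.0584 and 0.0535). Heatr1 averaged 9.99 ± 0.03 in 79-6, 9.99 ± 0.08 in DMSO and 10.26 ± 0.09 in fresh samples (SD, n = 2 each). The 79-6 and DMSO arrays of this gene overlapped, and its 79-6 against DMSO change of 0.00 had a 95% interval of -0.19 to 0.19.

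Late 40S factors, which accompany the particle through export and its last cleavage, had 4 of 5 genes fallen in DMSO against fresh samples and 5 of 5 in 79-6 against fresh samples. The shares of all genes that fell were 10.7% and 13.9%. Tsr1, a GTPase-like factor, read 8.97 and 8.86 in 79-6, 8.99 and 9.08 in DMSO and 9.52 and 9.58 in fresh samples. It fell 1.43-fold in DMSO against fresh samples (adjusted p = 0.00359), and the cultured groups lay close to each other. Ltv1, known from yeast as a factor of 40S export, read 8.88 and 8.70 in 79-6, 8.95 and 8.92 in DMSO and 9.38 and 9.43 in fresh samples. Its fall in that comparison was 1.38-fold (adjusted p = 0.00791). Rrp12, an export factor, read 7.90 and 7.86 in 79-6, 7.87 and 7.94 in DMSO and 8.35 and 8.34 in fresh samples. The cultured groups overlapped, far below the fresh arrays, and the change in DMSO against fresh samples was -0.44 (adjusted p = 0.00453). Bysl (bystin) changed by -0.34 in DMSO against fresh samples (adjusted p = 0.0162), and its 79-6 against DMSO change of 0.06 was the highest of the list. Nob1, the nuclease that finishes the 18S rRNA, changed by -0.20 in DMSO against fresh samples (adjusted p = 0.104) and fell 1.24-fold in 79-6 against fresh samples (adjusted p = 0.0173).

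Factors of 60S assembly fell in 5 of 7 cases in DMSO against fresh samples and in 7 of 7 in 79-6 against fresh samples. All genes tested fell in 10.7% and 13.9% of cases. Rrp1b, a nucleolar protein of pre-60S particles, read 9.0 and 8.71 in 79-6, 9.16 and 9.13 in DMSO and 9.70 in both fresh samples. Its 79-6 against fresh change was the lowest of the list, at 1.8-fold lower (adjusted p = 0.00108), and it fell 1.47-fold in DMSO against fresh samples (adjusted p = 0.00858). The 2 arrays of its 79-6 group differed by more than those of the other groups, and without 79-6 replicate 1 its 79-6 against DMSO change was -0.44 (adjusted p = 0.0492). Nop2, a cytosine methyltransferase of 28S rRNA, read 10.07 and 9.88 in 79-6, 10.16 and 10.11 in DMSO and 10.45 and 10.58 in fresh samples, with a 1.3-fold fall in DMSO against fresh samples (adjusted p = 0.0239). Nop16 changed by -0.45 in that comparison (adjusted p = 0.00871).

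Pes1, Bop1 and Wdr12 form a complex that is needed for 28S rRNA maturation, and the 3 differed in their calls. Bop1 read 10.09 and 10.07 in 79-6, 10.11 and 9.96 in DMSO and 10.44 and 10.52 in fresh samples. It fell by 0.45 in DMSO against fresh samples (adjusted p = 0.00804), and its 79-6 arrays lay within the range of the DMSO arrays. Wdr12 read 9.85 and 9.77 in 79-6, 10.03 and 10.02 in DMSO and 10.30 in both fresh samples, in 3 separate steps. Its changes were -0.28 in DMSO against fresh samples (adjusted p = 0.031) and -0.21 in 79-6 against DMSO samples (adjusted p = 0.144). Its other probe set changed by -0.25 and -0.27. With both probe sets averaged, Wdr12 was not called in DMSO against fresh samples (limma, adjusted p = 0.0583). Pes1 changed by -0.21 and -0.11 in these comparisons without passing the test, and it fell by 0.31 in 79-6 against fresh samples (adjusted p = 0.0161). The RNA helicase Ddx18 changed by -0.19 in DMSO against fresh samples (adjusted p = 0.144) and fell by 0.39 in 79-6 against fresh samples (adjusted p = 0.00836). Its other probe set changed by -0.11 and -0.50 in these comparisons. In 79-6 against DMSO samples that probe set changed by -0.39 and the one used by -0.21.

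The rest of the pathway was read from 8 related lists with 234 measured genes. Of these, 51 fell (21.8%) and 6 rose (2.56%) in DMSO against fresh samples, against 10.7% and 8.89% of all genes. With dim genes left out, 2081 of 9968 genes fell and 1994 rose. The related lists were not counted in that setting. In DMSO against fresh samples 13 of 50 other 40S factors fell and 0 rose (median change -0.12), among them the 18S rRNA acetyltransferase Nat10 (-0.77 ± 0.07, adjusted p = 0.000491), Tsr2 (-0.75), Nol6 (-0.70) and Pno1 (-0.54). Of 61 other 60S factors 24 fell and 0 rose (median -0.19), including Tma16 (-0.78), the large AAA ATPase Mdn1 (-0.71), Dhx33 (-0.64) and Wdr18 (-0.54). Other snoRNP and rRNA modification genes fell in 4 of 16 cases (median -0.19), with the H/ACA assembly factor Naf1 at -0.39 and Nsun5, Znhit6 and Ruvbl2 at -0.36, -0.35 and -0.24. Whether these medians differ from that of the 40 genes was not tested.

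Among 11 other genes of rRNA transcription 1 fell and 2 rose in DMSO against fresh samples, where 10.7% of all genes fell and 8.89% rose. Tcof1 (treacle), which works with RNA polymerase I, fell by 0.39 (adjusted p = 0.013). The termination factor Ttf1 and the polymerase subunit Znrd1 rose by 0.39 and 0.36 (adjusted p = 0.0176 and 0.0133). RNA polymerase III genes, which make the 5S rRNA and transfer RNAs, fell in 5 of 20 cases (10.7% of all genes did), led by Polr3d (-0.67) and Polr3b (-0.64), followed by Gtf3c6 (-0.45) and Polr3e (-0.40). The exosome trims rRNA ends, and its list here also holds separate exonucleases. In that list 3 of 15 genes fell, against the same 10.7%, namely Exosc5, Exosc2 and Exosc1. Eri1, a separate exonuclease, rose by 0.36 (adjusted p = 0.0129). With dim genes left out, 2081 of 9968 genes fell, and these lists were not counted in that setting.

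Cytosolic ribosomal proteins were measured for 56 of 82 genes. In DMSO against fresh samples 10.7% of all genes fell and 8.89% rose. Of the 56 ribosomal protein genes 1 fell (Rpl12, -0.44) and 2 rose (Rpl5 by 0.36, Rpl37a by 0.29), with a median change of 0.01. Per array their median distance from the fresh mean was 0.03 and -0.04 in 79-6, 0.03 and 0.02 in DMSO and 0.02 and -0.02 in fresh samples, so these groups overlapped where those of the 40 biogenesis genes did not. Many ribosomal protein genes have processed pseudogenes, so their probe sets may take up signal from near-identical copies. Of 16 snoRNA host genes 5 were measured, and Snhg5 rose by 0.26 in DMSO against fresh samples (adjusted p = 0.0358).

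**Figure D5:**
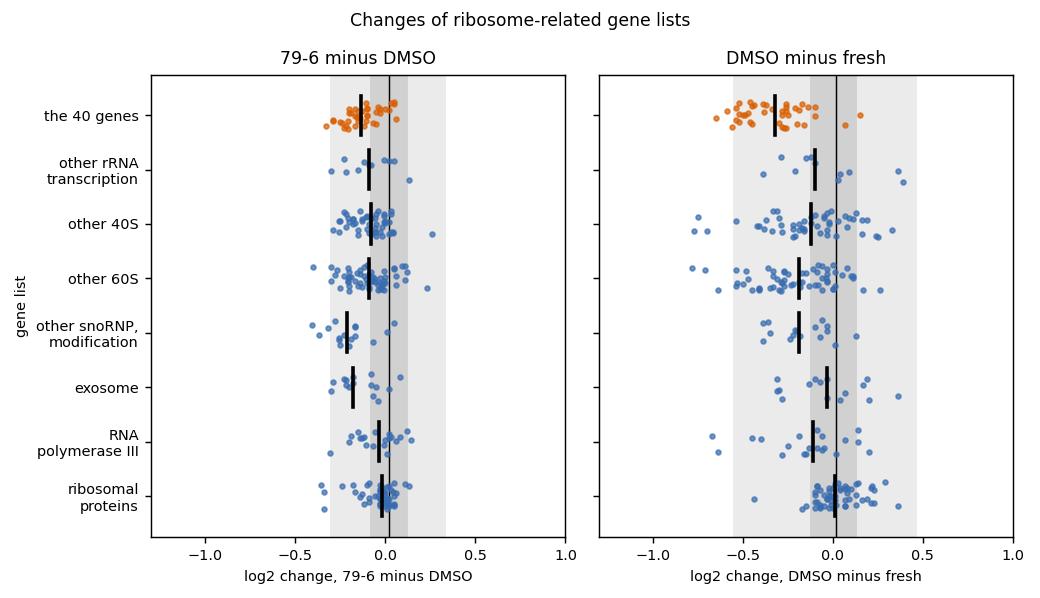
Log2 change of each gene (points) in the 40 biogenesis genes and 7 related lists for 79-6 minus DMSO (left) and DMSO minus fresh (right); black bars are list medians, the vertical line is the median of all genes, the inner grey band spans the quartiles of all genes tested and the outer band the 5th to the 95th percentile. In DMSO minus fresh the list medians run from -0.32 for the 40 genes to 0.01 for ribosomal proteins.

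In 79-6 against DMSO samples 2 of the 234 genes of these related lists passed the test, both lower (0.855%, against 1.98% of all genes called lower). Urb2, a 60S factor, read 10.39 in both 79-6 samples, 10.77 and 10.81 in DMSO and 11.27 and 11.13 in fresh samples, and fell by 0.40 ± 0.08 (adjusted p = 0.0372). Naf1 read 8.77 in both 79-6 samples, 9.16 and 9.20 in DMSO and 9.67 and 9.47 in fresh samples, and fell by 0.41 ± 0.09 (adjusted p = 0.0461). In both genes the 3 groups did not overlap. List medians were -0.22 for other snoRNP and modification genes, -0.18 for the exosome, -0.09 for other rRNA transcription genes and other 60S factors, -0.08 for other 40S factors, -0.03 for RNA polymerase III and -0.02 for ribosomal proteins. Those with the smallest p that were not called were Taf1c, Taf1a and Tcof1 of rRNA transcription, Utp25, Dimt1 and Krr1 of the 40S factors, Dis3, Mtrex and Exosc2 of the exosome, Gtf3c5, Gtf3c4 and Polr3k of RNA polymerase III, Rpl29, Rpl5 and Rpl21 of the ribosomal proteins, and Snhg5, Snhg17 and Gas5 of the snoRNA hosts, with adjusted p of 0.0853 or more.

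In 79-6 against fresh samples 79 of the 234 genes fell (33.8%) and 7 rose (2.99%), against 13.9% and 12% of all genes. With dim genes left out, 2740 of 9968 genes fell and 2241 rose. Of 61 other 60S factors 34 fell and 1 rose, as did 19 and 1 of 50 other 40S factors, 8 and 0 of 16 snoRNP and modification genes, 7 and 2 of 20 RNA polymerase III genes, 5 and 0 of 15 exosome genes, 4 and 2 of 11 other rRNA transcription genes and 1 and 1 of 56 ribosomal proteins. The changes of Mdn1, Tsr2, Nat10 and Tma16 were -1.0, -0.96, -0.92 and -0.88.

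Myc, the activator named above, read 11.65 and 11.49 in 79-6, 12.10 and 12.07 in DMSO and 12.68 and 12.75 in fresh samples. Its 3 groups did not overlap, and it fell by 0.63 in DMSO against fresh samples (adjusted p = 0.00176) and by 0.51 in 79-6 against DMSO samples (adjusted p = 0.0215). Mycn, its relative, read 7.25 and 7.13 in 79-6, 7.20 and 7.04 in DMSO and 8.73 and 8.59 in fresh samples, and fell by 1.53 in DMSO against fresh samples (adjusted p = 6.9e-05). The antagonists Mxd3 and Mxi1 rose by 1.0 and 0.39 in that comparison (adjusted p = 0.000344 and 0.0133). Of the 12 genes of the Myc network 4 fell and 4 rose in DMSO against fresh samples, with a median change of 0.10, where 10.7% of all genes fell and 8.89% rose. In 79-6 against DMSO samples Myc was the only 1 of the 12 called, where 1.98% of all genes fell, and the median was 0.00. Mycn, Mxd3 and Mxi1 changed by 0.07, -0.30 and -0.27 there, without passing the test. Of 20 p53 target genes 18 were measured, without Cdkn1a and Bax. In DMSO against fresh samples 5 of the 18 rose and 3 fell (median 0.14), against 8.89% and 10.7% of all genes. Their median in 79-6 against DMSO samples was 0.05. Whether the changes of Myc, Mycn or p53 targets bear on the biogenesis genes was not tested.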

How the data were processed

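Per the labels' protocols, RNA was isolated with a PicoPure kit and run, biotin-labelled, on 1-colour Affymetrix whole-transcript arrays. The deposited values are linear intensity, 8.75 to 25316, made by the authors with RMA in the R package oligo per the submitters' processing notes, with no version stated there. Before every test log2 was taken of the deposited values (3.13 to 14.63). Of 34760 probe sets 21640 had 1 gene symbol, 1321 several and 11799 none; the table was read with GEO's platform annotation, and Entrez identifiers matched to RefSeq genes (21553) changed 0 symbols.

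All 6 arrays were fitted with 1 mean per group, with 3 residual and 4.24 prior degrees of freedom (limma 3.58.1, lmFit and eBayes, R 4.3.3), and two-sided p-values were adjusted over 19937 genes (Benjamini-Hochberg); a gene was called under 0.05. The fit was tested on simulated data with independent noise for each gene, which does not check the calls made on these arrays. The 40 measured genes, the related lists and the rule for naming were chosen with earlier results of these data known, so the direction of the list is not independent evidence. From each related list the text names up to 4 called genes with the largest change per comparison, or up to 3 with the smallest p. Probe sets shared by several symbols were left out, including 3 that Npm1 shares with Gm15484. Alternatives covered scaling, probe sets, dim genes, the prior, the groups fitted, a replicate block and each array left out. Precision rests on 2 arrays per group.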

Additional observations from a re-analysis of the deposited data

How the results depend on the processing

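Calls of single genes depend on single arrays, since each group holds 2. In DMSO against fresh samples 11 of the 24 genes called (Nolc1, Polr1a, Polr1b, Rrn3, Mybbp1a, Rrp12, Wdr43, Utp20, Tsr1, Gnl3 and Rcl1) were called under every alternative that tested them, as were 21 of 34 in 79-6 against fresh samples. Leaving out 1 array at a time gave 2286 to 4070 genes called over the whole table (3902 with all arrays) and 12 to 24 of the list in DMSO against fresh samples, 93 to 661 (869) and 0 to 1 of the list, with medians of -0.17 to -0.06, in 79-6 against DMSO samples, and 3081 to 5068 (5174) in 79-6 against fresh samples. Shifting arrays to a common median gave list medians of -0.26 for DMSO against fresh and -0.19 for 79-6 against DMSO. In 79-6 against DMSO samples 1547 genes and 1 of the list were called with dim genes left out, and 1610 and 2 with a trended prior; without DMSO replicate 1, DMSO replicate 2 or 79-6 replicate 2 the count over the table was 113, 93 and 127. Signs turned in that comparison, where no gene of the list was called, for Polr1e (-0.02), Ubtf (-0.03) and Bop1 (-0.01) after the shift, and with arrays left out for Polr1c (-0.08 to 0.02), Heatr1 (-0.06 to 0.06), Bop1 (-0.03 to 0.12), Rrp12 (-0.06 to 0.01), Ubtf (-0.02 to 0.06), Rrp9 (-0.09 to 0.20) and Fbl (-0.10 to 0.02). The cause was not tested. Replicate numbers did not pair the arrays (correlations of deviations 0.004, 0.095 and -0.074), and a fit with the replicate number as a block called 21 of the list (3667 genes) in DMSO against fresh samples, 0 (774) in 79-6 against DMSO samples and 31 (4852) in 79-6 against fresh samples.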
